A study of Drosophila melanogaster with 24 samples.

Results

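The windows described here are stretches of autosomal chromatin in fly heads that carried H3K27me3 in every library but little H3R17me2. The large autosome arms 2L, 2R, 3L and 3R of the dm6 genome were divided into 21800 windows of 5 kb. A window was a member when peaks covered at least 50% of it in all 8 H3K27me3 lists and when peaks covered on average at most 25% of it over the 8 H3R17me2 lists. The members were therefore chosen by these measured shares, and their levels of both marks are given as descriptions without a test. The rule kept 224 windows, which was 1.03% of all windows and 5.18% of the 4323 windows that passed the H3K27me3 part of it. The other 4099 windows of that set are called the other H3K27me3 windows below. Arm 2L held 65 members, 2R 50, 3L 45 and 3R 64, between 4.45% and 6.07% of the H3K27me3 windows of each arm. Chromatin came from heads of mated males, 25 pooled per sample, and was precipitated with an antibody against either mark. The groups were 40-day-old LKRSDH MB01942 mutant flies, 40-day-old w1118 control flies, 3-day-old LKRSDH MB01942 mutant flies and 3-day-old w1118 control flies, with 2 replicates for each mark in each group. LKRSDH encodes a bifunctional enzyme of lysine breakdown, and peak lists of histone marks do not measure whether its product was lost. Whole heads hold many cell types, so a mark on more cells and more of the mark per cell cannot be told apart in these lists.

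H3K27me3 is the trimethylated form of a lysine of histone H3. It is written by the Polycomb repressive complex PRC2, is bound by the complex PRC1, and lies in broad domains over silent developmental genes. In flies these domains are nucleated at Polycomb response elements, where DNA-binding proteins such as GAGA factor, which reads GAGAG, and Pleiohomeotic, which reads GCCAT, help to recruit the complexes. H3R17me2 is histone H3 with a dimethylated arginine, placed by the arginine methyltransferase Art4 (CARM1 in mammals) and best known from active genes.

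Sequences are shown because the members were lower in GC and held more GAGAG than the other H3K27me3 windows. They come from 6 of the 16 genes of the developmental lists that start in a member. Those shown lie on 2L, 3L or 3R and come first by length of the run of adjacent members, then by lower mean H3R17me2 share. They are examples, and the shares over all genes that start in a member are given further below. Each of the 6 runs is the 250 bases before the annotated gene start, 5′ to 3′ on the strand of the gene, from RefSeq Release 6 (dm6), with GAGAG or its reverse complement CTCTC and GCCAT or its reverse complement ATGGC in capitals. The coordinates are 3L:24723912-24724161 (plus strand) for scro, 2L:11445615-11445864 (minus strand) for salm, 3L:12693389-12693638 (plus) for mirr, 3L:1177277-1177526 (minus) for bab2, 2L:21828343-21828592 (plus) for tsh and 2L:3538997-3539246 (plus) for drm.
scro upstream: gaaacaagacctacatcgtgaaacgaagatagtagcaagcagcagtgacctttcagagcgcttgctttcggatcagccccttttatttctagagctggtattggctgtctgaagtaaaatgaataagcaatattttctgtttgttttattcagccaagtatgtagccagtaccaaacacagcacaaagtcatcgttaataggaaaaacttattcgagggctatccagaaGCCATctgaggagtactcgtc
salm upstream: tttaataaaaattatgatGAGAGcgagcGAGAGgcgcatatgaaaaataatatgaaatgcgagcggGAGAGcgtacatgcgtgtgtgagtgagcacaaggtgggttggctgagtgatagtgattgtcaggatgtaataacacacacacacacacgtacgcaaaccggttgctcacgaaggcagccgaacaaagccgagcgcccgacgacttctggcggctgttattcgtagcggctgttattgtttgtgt
mirr upstream: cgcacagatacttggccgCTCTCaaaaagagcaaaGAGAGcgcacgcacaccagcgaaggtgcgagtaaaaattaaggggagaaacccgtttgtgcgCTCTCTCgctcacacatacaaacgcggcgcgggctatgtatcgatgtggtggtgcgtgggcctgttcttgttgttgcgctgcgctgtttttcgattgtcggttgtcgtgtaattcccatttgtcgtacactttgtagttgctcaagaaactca
bab2 upstream: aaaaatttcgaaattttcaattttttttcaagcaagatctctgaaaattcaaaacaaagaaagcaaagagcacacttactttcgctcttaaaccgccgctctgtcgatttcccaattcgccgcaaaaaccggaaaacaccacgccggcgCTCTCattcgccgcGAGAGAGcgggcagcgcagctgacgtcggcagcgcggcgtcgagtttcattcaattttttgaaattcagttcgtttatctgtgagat
tsh upstream: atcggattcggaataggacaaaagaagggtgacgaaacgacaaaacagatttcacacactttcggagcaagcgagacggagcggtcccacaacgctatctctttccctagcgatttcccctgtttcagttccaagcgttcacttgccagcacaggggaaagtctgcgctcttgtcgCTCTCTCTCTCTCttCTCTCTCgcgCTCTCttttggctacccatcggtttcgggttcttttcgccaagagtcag
drm upstream: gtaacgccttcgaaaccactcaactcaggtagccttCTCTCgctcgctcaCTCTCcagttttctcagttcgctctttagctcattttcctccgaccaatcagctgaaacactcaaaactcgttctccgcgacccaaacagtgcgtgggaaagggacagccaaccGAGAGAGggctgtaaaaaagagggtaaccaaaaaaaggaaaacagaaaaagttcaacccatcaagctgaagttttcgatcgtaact
The matches, counted with overlaps on both strands, numbered 8 for GAGAG upstream of tsh, 4 for mirr, 4 for drm, 3 for salm, 3 for bab2 and 0 for scro. GCCAT was found only upstream of scro, with 1 match among these 6 genes. The 3 stretches of 120 bases that follow show GAGAG repeats inside members, on the plus strand and with the same capitals, and were picked after the matches had been counted.
Stretch 2L:8821560-8821679: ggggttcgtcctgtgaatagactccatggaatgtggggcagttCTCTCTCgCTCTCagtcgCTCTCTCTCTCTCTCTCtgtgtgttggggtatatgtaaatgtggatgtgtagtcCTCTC
Stretch 3L:12627760-12627879: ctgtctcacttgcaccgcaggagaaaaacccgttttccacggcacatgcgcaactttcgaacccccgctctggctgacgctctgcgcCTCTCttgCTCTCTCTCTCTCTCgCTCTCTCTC
Stretch 3R:17556359-17556478: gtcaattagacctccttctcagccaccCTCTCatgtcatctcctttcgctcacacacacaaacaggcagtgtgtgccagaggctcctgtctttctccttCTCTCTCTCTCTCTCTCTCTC
The stretch on 3R lies in the member in which Hmx, a homeobox gene, starts, and that member had the most matches of all members, 6.6 per kb. GAGAG or CTCTC is common, since 99.6% of members, 99.7% of the other H3K27me3 windows and 99.2% of all windows held at least 1 match.

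Across the members, GAGAG averaged 1.86 matches per kb, against 1.48 in the other H3K27me3 windows and 1.54 in all windows. The mean was higher in the members on 4 of 4 arms, by 0.38 ± 0.095 matches per kb (SD over arms, n = 4). GAAAA, read by Dsp1, gave 6.57 matches per kb in members, against 5.99 in the other H3K27me3 windows and 5.69 in all windows, and GTGTGT, read by Combgap, gave 1.57, against 1.49 and 1.18. GCCAT ran the other way, with 2.37 matches per kb in members, against 2.77 in the other H3K27me3 windows and 2.36 in all windows. Against the other H3K27me3 windows, GAAAA was higher and GCCAT lower in members on 4 of 4 arms. GTGTGT was higher on 3 of 4 and lower on 1, by 0.082 ± 0.204 matches per kb (SD over arms). Among the 88 protein-coding genes that start in a member, 39.8% had GAGAG or CTCTC in the 250 bases upstream, against 30.1% of 1301 genes that start in the other H3K27me3 windows and 26.1% of all 11669 genes. For GCCAT the shares were 38.6% in members, 40.5% in the other H3K27me3 windows and 35.1% over all genes. These matches describe the sequence only, and binding was not measured.

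The members were poorer in G and C than the rest. Their mean GC content was 40.9%, against 43.1% in the other H3K27me3 windows and 42.1% in all windows, and it was lower in members on 4 of 4 arms, with differences of -2.26 to -2.03 percentage points. By GC class, members made up 13.1% of the H3K27me3 windows with 35 to 40% GC, 4.57% of those with 40 to 45% and 1.6% of those with 45 to 50%. Repeats moved with this. Soft-masked bases took 18.6% of members, against 15.1% of the other H3K27me3 windows and 19.8% of all windows. Transposons annotated in the reference took 3.59% of members, against 0.618% of the other H3K27me3 windows and 5.17% of all windows. In 29 members (12.9%) a transposon covered more than 5% of the window, against 3.10% of the other H3K27me3 windows and 10.7% of all windows. Against the other H3K27me3 windows this share was higher in members on 4 of 4 arms. Over the 4323 H3K27me3 windows, the mean H3R17me2 share correlated with GC content at r = 0.37 and with masked bases at r = -0.32, as a description over windows of the same libraries. The part that base composition and repeats have in the H3R17me2 shares was not tested.

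The lists held 3575 to 6295 peaks per H3K27me3 library and 10627 to 17105 per H3R17me2 library. They hold no counts, so the depth behind each value is unknown and no counting interval could be given. Peaks of the H3K27me3 lists that covered members were long, with a median of 30.4 to 53.5 kb per library, and 80.8% to 99.6% of the members lay under one with a q-value under 0.05. Of the H3R17me2 peaks over members, 0% reached that q-value in any library, and over the other H3K27me3 windows at most 1 window did in any library. The H3R17me2 shares therefore rest on peaks called at the p-value threshold alone. The H3R17me2 list of 40-day control replicate 1 stood apart, covering 18.9% of all windows on average, against 28.8% to 43.1% in the other 7.

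**Figure D1:**
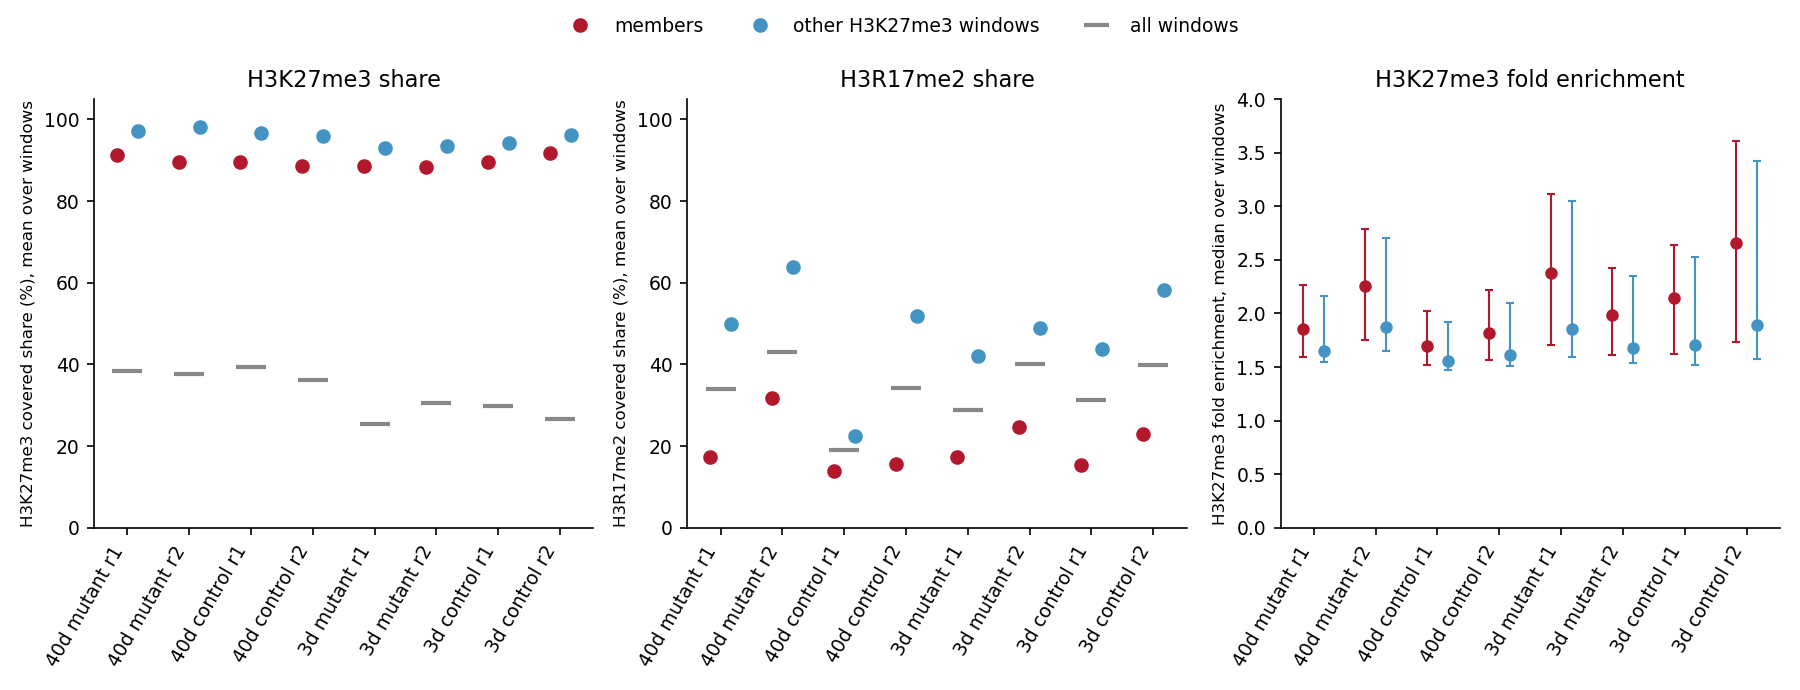
Covered share of H3K27me3 and of H3R17me2 (%, mean over windows) and H3K27me3 fold enrichment over input (median over windows, bars from the lower to the upper quartile) in each library, for the 224 members (red), the 4099 other H3K27me3 windows (blue) and all windows (grey dashes). The H3R17me2 share of the members lies between 13.9% and 31.8% and below that of all windows in each of the 8 libraries. The rule chose the members by a low mean over these same lists, so this order is partly built in. It did not hold in 40-day mutant replicate 2 when that library was left out of the choice, with 47.0% against 43.1% in all windows. Nor did it hold in 40-day control replicate 1 when left out, with 25.8% against 18.9%.

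H3K27me3 covered 88.3% to 91.7% of the members per library, against 93.1% to 98.1% of the other H3K27me3 windows, and 96 members (42.9%) were covered end to end in all 8 lists, against 55.1% of the others. The fold enrichment over input, which did not enter the rule, was higher in the members. Its median was 1.69 to 2.66 per library in members, against 1.55 to 1.90 in the other H3K27me3 windows, and the ratio of the medians lay between 1.09 and 1.40 in 8 of 8 libraries. By fold enrichment, members made up 2.61% of the H3K27me3 windows below 1.6, 5.95% between 1.6 and 1.8, 5.88% between 1.8 and 2.2, 9.37% between 2.2 and 2.6, and 5.86% above 2.6, so the share did not rise steadily with enrichment. MACS2 gives 1 fold enrichment for a whole peak, so windows under the same peak share it. The 224 members lay under 171 to 194 H3K27me3 peaks per library, with up to 6 members under 1 peak. Where H3R17me2 peaks did touch the members, their fold enrichment was like that elsewhere, at 0.982 to 1.00 times the median of the other H3K27me3 windows.

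H3R17me2 covered 19.9 ± 6.08% of the members (SD, n = 8 libraries), against 47.7 ± 12.4% of the other H3K27me3 windows and 33.8 ± 7.71% of all windows. The members were poor in the mark but not free of it. Every member had a peak in at least 1 of the 8 lists, and 119 members were covered to 50% or more in at least 1 list. No peak touched 213 members in at least 1 list and 40 members in at least 4 lists. The window 3R:32070001-32075000 was the only member with at most 25% in every list, and it was picked here for that value. It had 20.8% and 20.7% in 40-day control libraries and no peak in the other 6, overlaps no gene, and carries transposons over 37.7% of its length.

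Because the rule averages the same lists, each H3R17me2 library was also left out in turn and its share measured in the windows that the other 7 lists chose, 218 to 319 windows. The left-out share was 31.0 ± 7.34% in the chosen windows (SD, n = 8), against 47.2 ± 12.5% in the other H3K27me3 windows and 33.8 ± 7.71% in all windows. In 7 of 8 libraries the chosen windows had the lower share, at 53.6% to 73.9% of that in the other H3K27me3 windows. In 40-day control replicate 1 the order was turned, with 25.8% in the chosen windows and 21.9% in the others. Measured in a list that had no part in the choice, the windows were below the other H3K27me3 windows in most libraries. Set against all windows of the same library, they were higher in 40-day mutant replicate 2, at 47.0% against 43.1%. They were also higher in 40-day control replicate 1, at 25.8% against 18.9%, and lower in each of the remaining libraries.

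**Figure D2:**
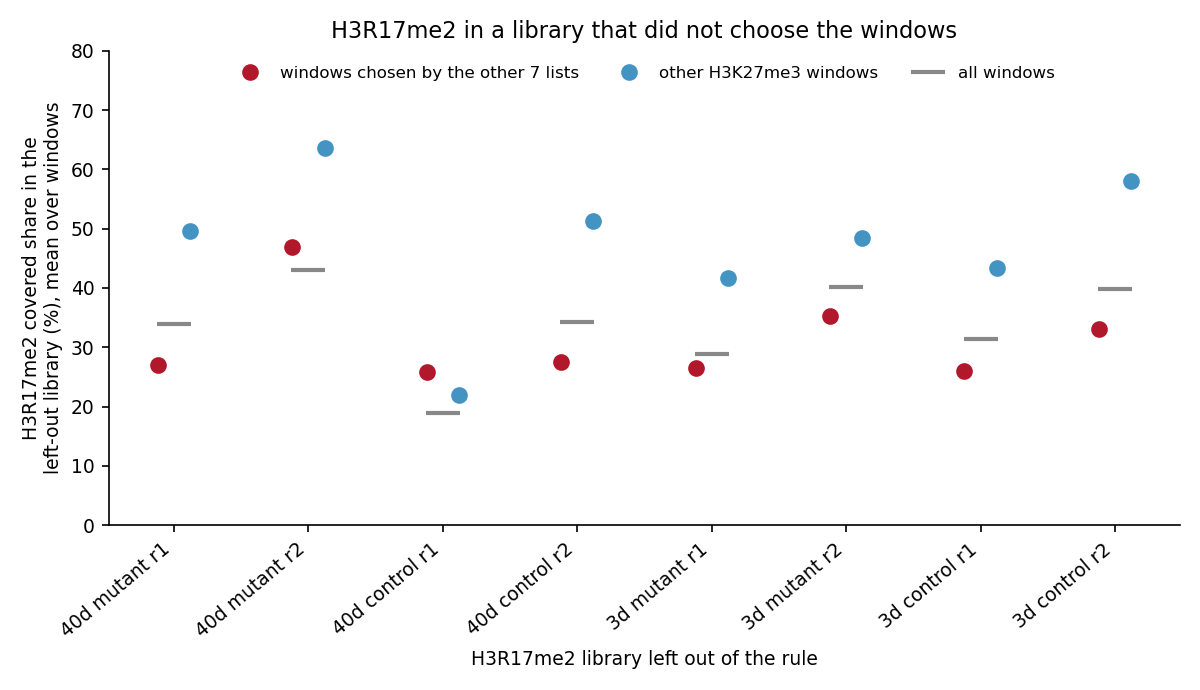
H3R17me2 covered share (%, mean over windows) in each library when that library was left out of the rule, for the windows chosen by the other 7 lists (red), the other H3K27me3 windows (blue) and all windows (grey dashes). The red points lie below the blue ones in 7 of 8 libraries, the exception being 40-day control replicate 1.

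The H3R17me2 share was higher in the windows beside the members than in the members themselves. The level in the member itself is set by the rule, whereas the neighbours were not chosen by it. A step between them is therefore built into the choice, and its size cannot be read as a local dip. In a left-out library, windows chosen by the other 7 lists averaged 31.0%. In the windows 5 kb to the left and right of a member the H3R17me2 share averaged 37.7% and 37.2%, against 44.0% and 44.2% beside the other H3K27me3 windows. H3K27me3 covered 84.2% and 85.2% of the neighbours of members. Of the neighbours, 10.7% on either side were members themselves, and 214 members (95.5%) lay beside at least 1 other H3K27me3 window. The 224 members formed 200 runs, of which 181 were a lone window, 14 had 2 windows and 5 had 3. At the edge of the rule, the H3R17me2 means just inside were 25.00% in grn, 24.98% in a gene-free window of 2R and 24.95% at modSP and Ubx, and just outside 25.02% at CG43175, 25.03% at CG12439 and 25.04% at heph. For H3K27me3, the lowest share just inside was 50.2% at gcm2 and Trx2, 50.5% at CaBP1 and 50.6% at Sema2b, and just outside 49.5% at scro, 49.5% at CG45263 and 49.4% at DIP-delta.

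**Figure D3:**
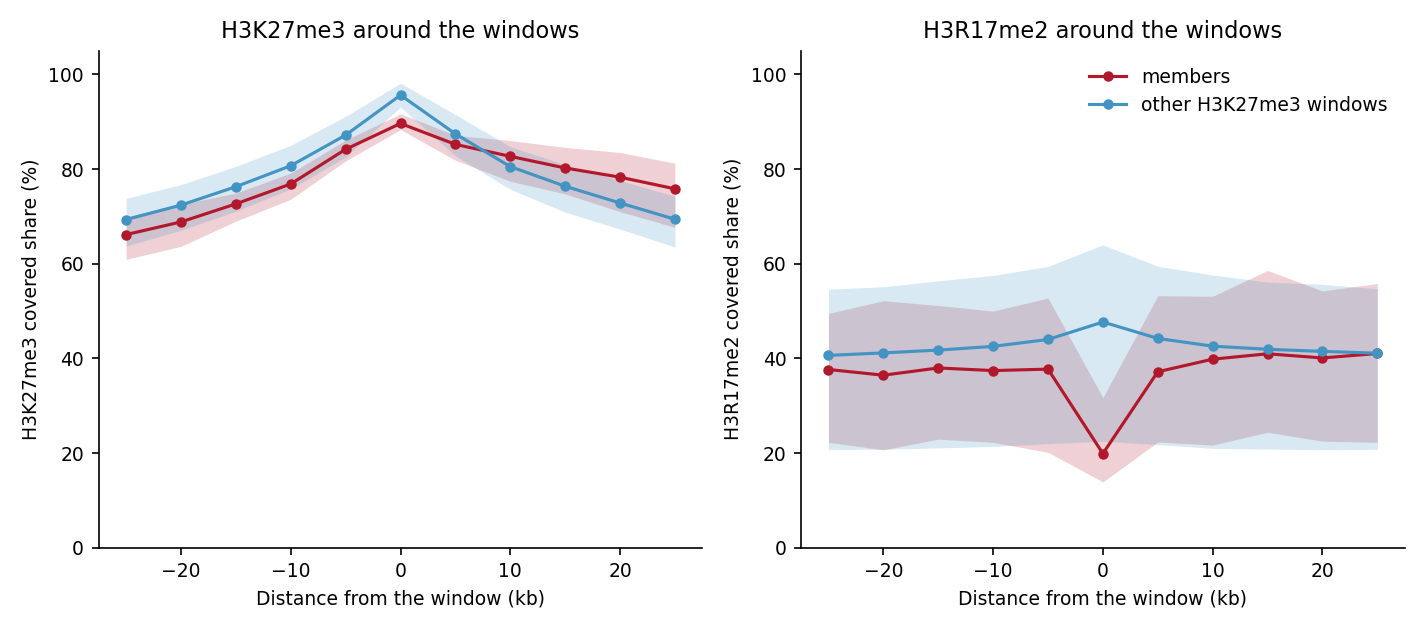
Covered share (%) of H3K27me3 and H3R17me2 in windows up to 25 kb from a member (red) or from another H3K27me3 window (blue). Lines are means over the 8 libraries and shading spans the lowest to the highest library. H3R17me2 averages 19.9% at the member, where the rule sets the level, and 37.2% to 37.7% in the windows beside it. H3K27me3 declines gradually on both sides.

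Of the 5 runs of 3 windows, those at hth, scro and salm lay in transcription factor genes of development. The one with the least H3R17me2, 3R:10605001-10620000, lies within hth (FBgn0001235, 3R:10507561-10639568, minus strand), whose homeodomain protein is a cofactor of Hox proteins. In its middle window the H3R17me2 share was 0% in both 40-day mutant libraries, 0% in both 40-day control libraries, 31.1% and 0% in 3-day mutants, and 0% in both 3-day control libraries. Only 1 of 8 lists thus placed a peak there, whereas 1 H3K27me3 peak of 223 to 260 kb ran over it in every list. In all, 5 of 27 windows along hth were members.

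The run 3L:24720001-24735000 holds the start of scro, a homeobox gene of the NK-2 type (FBgn0287186, 3L:24724162-24758036, plus strand). Its middle window had 19.4% and 37.7% H3R17me2 in 40-day mutants, 0% and 21.1% in 40-day controls, 0% and 55.0% in 3-day mutants, and 12.4% and 0% in 3-day controls. The groups overlapped. H3K27me3 covered 50.8% and 56.9% of that window in 3-day mutants and 100% in the other 6 libraries, with a low fold enrichment of 1.52 to 1.90 in all 8 lists. GC content over the run was 32.3%.

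The run 2R:12970001-12985000 lies over Psc (FBgn0005624, 2R:12965997-12980994, minus strand), which encodes a subunit of PRC1. In the window of its start, H3R17me2 was 0% and 11.2% in 40-day mutants, 0% in both libraries of 40-day controls, 0% and 44.7% in 3-day mutants, and 34.1% and 16.3% in 3-day controls. H3K27me3 had a fold enrichment of 2.28 and 2.79 in 40-day mutants, 1.99 and 2.22 in 40-day controls, 2.52 and 2.32 in 3-day mutants, and 2.37 and 3.11 in 3-day controls. The 40-day controls had the lowest values. Of the 23 Polycomb and Trithorax group genes on these arms, Psc was the only one that started in any H3K27me3 window.

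The run 2L:11440001-11455000 covers the start of salm (FBgn0261648, 2L:11434311-11445614, minus strand), a zinc finger gene of wing and eye patterning. In the window of its start, H3R17me2 was 0% and 53.8% in 40-day mutants, 23.0% and 0% in 40-day controls, 29.6% and 0% in 3-day mutants, and 16.2% and 23.1% in 3-day controls. The replicates thus differed more than the groups. The remaining run of 3, 2R:13030001-13045000, overlaps CG13323. The 5 of the 14 runs of 2 windows with the lowest mean H3R17me2 share lay over ap (2R:5720001-5730000), CG33301 and Cpr31A (2L:10045001-10055000), CaBP1 (2L:16355001-16365000), bb8 and pnt (3R:23290001-23300000), and Fer2 and CG6006 (3R:16150001-16160000). Transposons took 41.2% of 1 of the 2 windows at ap.

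Genes of development started in members more often than protein-coding genes at large. Of the 128 genes in the developmental lists on these arms, 16 (12.5%) had their 5′ end in a member and 94 in another H3K27me3 window. Among all 11669 protein-coding genes, 88 (0.754%) started in a member and 1301 (11.1%) in another H3K27me3 window. Members thus held 14.5% of the developmental starts that lay in H3K27me3 windows, beside 6.34% of all protein-coding starts there. The 88 genes had 85 distinct starts in 75 windows. They were long, with a median of 4.84 kb, against 1.62 kb for genes that start in the other H3K27me3 windows and 2.09 kb for all genes. A start lay in 33.5% of members, against 23.9% of the other H3K27me3 windows and 32.5% of all windows, and 48 members overlapped no gene.

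**Figure D4:**
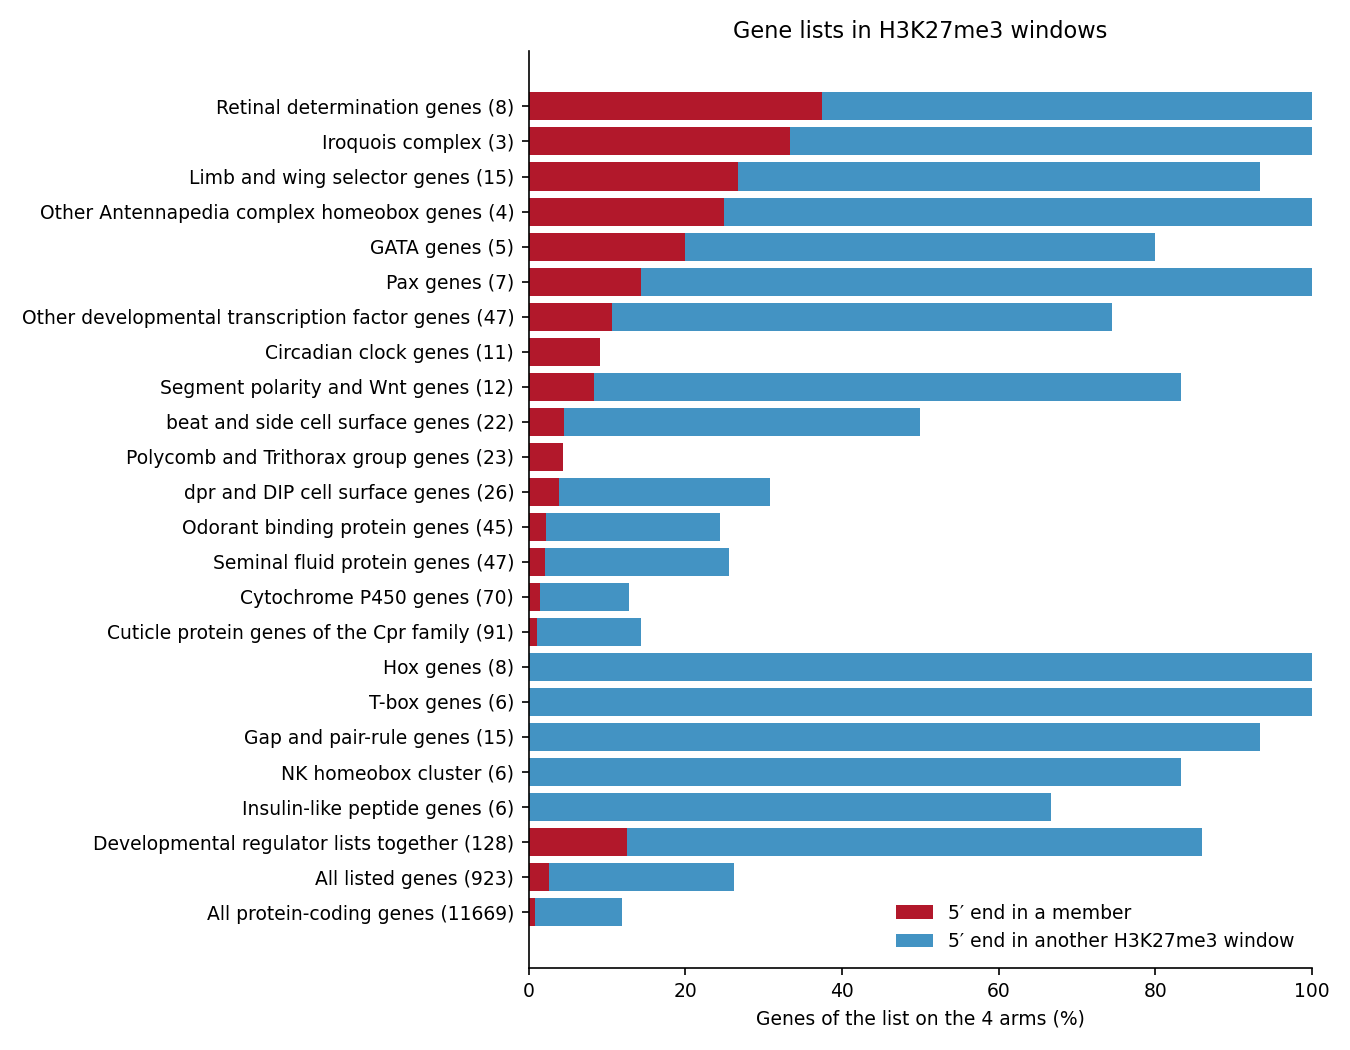
Share of the genes of each list on the 4 arms (number in brackets) whose 5′ end lies in a member (red) or in another H3K27me3 window (blue), in percent. Of the developmental genes together, 12.5% start in a member, against 0.754% of all protein-coding genes, while none of the 8 Hox genes does.

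Of 8 retinal determination genes, 3 started in members, namely so, the homeobox gene sine oculis, tsh, the zinc finger gene teashirt, and toe, the Pax gene twin of eyegone, and the other 5 started in other H3K27me3 windows. At so (FBgn0003460, 2R:7419350-7434872, plus strand), H3R17me2 covered 18.1% and 38.7% in 40-day mutants, 26.7% and 13.2% in 40-day controls, 35.2% and 0% in 3-day mutants, and 35.3% and 12.7% in 3-day controls. At tsh (FBgn0003866, 2L:21828593-21837011, plus strand), it covered 0% and 24.9% in 40-day mutants, 40.6% and 0% in 40-day controls, 0% in both 3-day mutant libraries, and 10.6% and 38.7% in 3-day controls. The groups overlapped at so, and at tsh only the 3-day mutants lay apart from their controls.

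Of 15 limb and wing selector genes, salm, tup, ap and bab2 started in members and 10 in the other H3K27me3 windows. The LIM-homeodomain genes tup and ap had mean H3R17me2 shares of 20.6% and 16.1%. At bab2, a BTB-domain gene of leg patterning (FBgn0025525, 3L:1140429-1177276, minus strand), H3R17me2 was 0% in both 40-day mutant libraries, 28.8% and 0% in 40-day controls, 0% and 20.6% in 3-day mutants, and 0% and 18.2% in 3-day controls. Its mean of 8.46% was low among members.

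The segment polarity gene en, which keeps posterior compartments distinct (FBgn0000577, 2R:11524006-11528210, minus strand), had 22.3% and 0% in 40-day mutants, 0% and 25.1% in 40-day controls, 0% and 43.2% in 3-day mutants, and 30.3% and 16.8% in 3-day controls. The Iroquois gene mirr (FBgn0014343, 3L:12693639-12710249, plus strand) had 0% and 28.3% in 40-day mutants, 0% in both 40-day control libraries, 0% and 40.8% in 3-day mutants, and 12.3% and 31.7% in 3-day controls. At both genes, peaks of 40-day and of 3-day mutants appeared in 1 replicate and not in the other.

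Among the remaining developmental genes, the anterior determinant bcd had a mean H3R17me2 share of 24.3%, the GATA gene grn 25.0%, the zinc finger gene drm 16.4%, the Sox genes Sox21b and D 21.3% and 21.2%, and the homeobox gene Hmx 19.7%. None of the 8 Hox genes, 6 T-box genes, 15 gap and pair-rule genes or 6 NK cluster genes started in a member. All 8 Hox starts lay in other H3K27me3 windows. Members did lie inside Hox genes, with 2 of 16 windows along Ubx, 1 of 21 along Antp and 1 of 6 along Scr.

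Outside the developmental lists, 8 listed genes started in members. The circadian kinase gene dco, also called doubletime, was the only clock gene of 11 on these arms to start in an H3K27me3 window (FBgn0002413, 3R:31054085-31061210, minus strand). Its window had H3R17me2 shares of 0.520% and 0% in 40-day mutants, 0% in both 40-day control libraries, 10.5% and 25.3% in 3-day mutants, and 0% and 13.4% in 3-day controls. H3K27me3 covered 60.1% to 66.6% of it. Its mean H3R17me2 share of 6.22% was the lowest of the members in which a protein-coding gene starts. The others were Psc, described above, Cpr31A of the cuticle, with 10.6%, the seminal fluid gene Sfp26Ad, with 15.4%, the odorant binding protein gene Obp47a, with 18.0%, the cell surface genes beat-Vc and dpr1, with 16.8% and 20.8%, and the cytochrome P450 gene Cyp12d1-d, with 22.1%. Cyp12d1-d has a near-identical neighbouring copy, so its reads cannot be placed with certainty. No insulin-like peptide gene (0 of 6) started in a member, and 4 of them started in other H3K27me3 windows. No rhodopsin gene (0 of 7) and no glycolysis gene (0 of 11) started in any H3K27me3 window of these heads.

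The comparisons of age and genotype asked how both marks differed inside the members. With 2 libraries in each group, 0.3333 is the smallest p that exact permutation allows, so no difference is called. The counts give members for which both libraries of one group lay beyond both of the other, and beside them the same share of all windows with a value in those 4 libraries. In 40-day controls H3K27me3 had its lowest fold enrichment. It averaged 1.84 ± 0.0914 in members of 40-day controls, against 2.52 ± 0.433 in 3-day controls (SD, n = 2 each). Both 40-day control libraries were lower than both 3-day ones in 185 members (82.6%), beside 50.9% of all windows and 73.1% of the other H3K27me3 windows, and higher in 1 member (0.446%), beside 12.1%. In members the difference was -0.677, with library means of 1.78 and 1.90 at 40 days and 2.21 and 2.82 at 3 days. It was -0.352 in windows chosen again without replicate 2.

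In 40-day mutants the fold enrichment in members averaged 2.14 ± 0.278, against 1.84 ± 0.0914 in 40-day controls (SD, n = 2 each). Both mutant libraries were higher in 152 members (67.9%), beside 54.3% of all windows and 73.4% of the other H3K27me3 windows, and lower in 2 members (0.893%), beside 3.3%. The difference was 0.299 in members and 0.101 in windows chosen again without 40-day mutant replicate 2. This comparison and the preceding one share the 40-day control libraries. In 3-day mutants it averaged 2.30 ± 0.307, against 2.52 ± 0.433 in 3-day controls, with 15 members higher (6.70%), beside 16.9%, and 8 lower (3.57%), beside 5.63%. In mutants by age it averaged 2.14 ± 0.278 at 40 days, against 2.30 ± 0.307 at 3 days, with 9 members higher (4.02%), beside 17.8%, and 21 lower (9.38%), beside 8.24%. Among the other H3K27me3 windows, 10.1% were higher and 4.73% lower in 3-day mutants against 3-day controls. With age in mutants, 9.71% of these were higher and 5.51% lower. In these last comparisons the libraries of the groups overlapped.

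**Figure D5:**
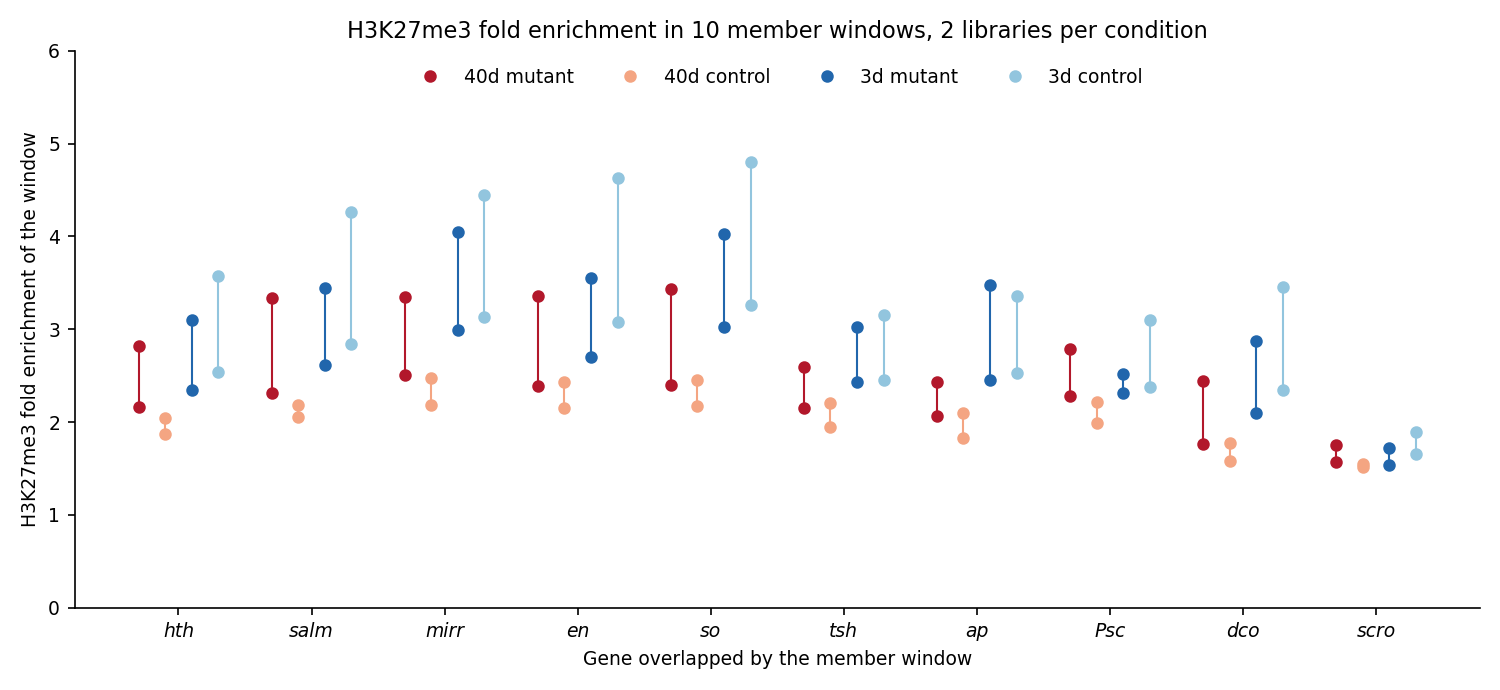
H3K27me3 fold enrichment over input in 10 member windows, named by the gene they overlap, with a point for each of the 2 libraries per condition joined by a line. By the mean of 2 libraries the 40-day controls (pale orange) are the lowest condition in each of the 10 windows, for instance 2.05 and 2.19 at salm, against 2.84 and 4.27 in 3-day controls.

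Single windows show how far these values spread. At 2L:11440001-11445000 in salm, the fold enrichment was 2.32 and 3.33 in 40-day mutants and 2.05 and 2.19 in 40-day controls, a difference of 0.707 (exact two-sided permutation test, p = 0.3333). The mutants lay above the controls without overlap, and this was the largest such difference among members. At 2R:14455001-14460000 in L, the gene Lobe of eye development, it was 2.50 and 2.99 in 40-day controls and 4.17 and 6.21 in 3-day controls, a difference of -2.44 (exact permutation test, p = 0.3333). L also had the highest mean fold enrichment of all members, 3.94. With age in mutants the extremes were CG11634 at 2L:21920001-21925000, with 2.15 and 2.59 at 40 days and 1.77 and 1.67 at 3 days, and the window 3R:25140001-25145000, which overlaps no protein-coding gene but has annotated genes of other types over 94.1% of its length, with 2.21 and 2.75 at 40 days and 3.66 and 2.95 at 3 days. Both differed without overlap between ages. The largest upward differences of the other comparisons were small, 0.159 at Lar and CG46244 in 3-day mutants against 3-day controls and 0.0272 at dpr11 and CG1137 in 40-day against 3-day controls.

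At sowah, 3L:12545001-12550000, a difference came with the extent of a peak. The fold enrichment was 1.67 and 1.64 in 3-day mutants and 3.13 and 4.44 in 3-day controls, a difference of -2.13, and 1.92 and 1.91 in 40-day mutants and 2.19 and 2.48 in 40-day controls, a difference of -0.418 (exact permutation tests, p = 0.3333 each). In all 4 control libraries the window lay under a peak of 190 to 191 kb that also covers mirr. In both 3-day mutant libraries and in 40-day mutant replicate 2 that peak began farther right and left sowah under separate peaks spanning 28.9 to 29.8 kb. In 40-day mutant replicate 1 the window lay under 2 peaks, of which the longer reached mirr.

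The covered share of H3K27me3 differed little in members. It was 90.5 ± 1.10% in 40-day mutants against 89.0 ± 0.701% in 40-day controls, with 16 members higher (7.14%), beside 6.64%, and 10 lower (4.46%), beside 6.25%. It was 88.5 ± 0.151% in 3-day mutants against 90.6 ± 1.51% in 3-day controls, with 11 higher (4.91%), beside 3.99%, and 32 lower (14.3%), beside 5.4%. With age in controls, 12 members were higher (5.36%), beside 19.5%, and 26 lower (11.6%), beside 2.09%. With age in mutants, 27 were higher (12.1%), beside 20.5%, and 17 lower (7.59%), beside 1.18%. Of the other H3K27me3 windows, 5.66% were higher and 3.34% lower with age in controls, and 11.9% higher and 0.951% lower with age in mutants. For mutants against controls, 4.73% of them were higher and 1.29% lower at 40 days, and 2.49% higher and 7.81% lower at 3 days. The rule required at least 50% in every list and so bears on these shares. Some signs changed when the windows were chosen again with libraries left out. In windows chosen without replicate 1 the difference between 40-day mutants and 40-day controls was -0.139 points. In those chosen without replicate 2, that between 40-day and 3-day controls was 1.85 points. Within the members themselves, the libraries numbered 1 and 2 gave 1.71 and 1.15 points for the former. For the latter they gave -0.0132 and -3.15 points.

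For H3R17me2, each difference between groups was smaller than the larger SD of its groups. The share in members was 24.5 ± 10.2% in 40-day mutants against 14.8 ± 1.24% in 40-day controls (SD, n = 2 each), with 53 members higher (23.7%), beside 23.8% of all windows, and 13 lower (5.80%), beside 5.57%. The members thus came near the shares of all windows in this comparison. Of the other H3K27me3 windows, 31.0% were higher and 3.66% lower, with a difference of 19.8 points. The rule limits the mean share in members over these same lists. In members the difference was 9.70 points, with 17.3% and 31.8% in the 40-day mutant libraries. It was 2.67 points in windows chosen again without 40-day mutant replicate 2. The share was 21.1 ± 5.13% in 3-day mutants against 19.2 ± 5.30% in 3-day controls, with 32 higher (14.3%), beside 12.8%, and 28 lower (12.5%), beside 14.9%. With age in controls it was 14.8 ± 1.24% at 40 days against 19.2 ± 5.30% at 3 days, with 23 higher (10.3%), beside 7.28%, and 54 lower (24.1%), beside 21.6%. With age in mutants it was 24.5 ± 10.2% at 40 days against 21.1 ± 5.13% at 3 days, with 32 higher (14.3%), beside 17.9%, and 32 lower (14.3%), beside 11.0%. Among the other H3K27me3 windows, 12.0% were higher and 21.2% lower in 3-day mutants against 3-day controls. With age, 5.42% of these were higher and 25.1% lower in controls, and 27.9% higher and 9.27% lower in mutants. Neither library of a condition had a peak in 14 members (6.25%) for 40-day mutants, beside 11.7% of all windows, in 30 (13.4%) for 40-day controls, beside 15.5%, in 10 (4.46%) for 3-day mutants, beside 10.5%, and in 20 (8.93%) for 3-day controls, beside 12.0%. By this count members were less often free of peaks than all windows, but more often than the other H3K27me3 windows. In those the shares were 0.122% for 40-day mutants, 1.00% for 40-day controls, 0.512% for 3-day mutants and 0.390% for 3-day controls. The rule chose the members by these same lists.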

How the data were processed

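The data are peak lists of 16 precipitated libraries, 8 per mark and 2 per condition. The 8 input libraries were not analysed here. According to the methods and the submitters' notes, the authors trimmed reads with Trim Galore 0.6.0, aligned them to dm6 with Bowtie2 2.5.1, removed duplicates with Picard, used SAMtools 1.19 and called broad peaks per library against input with MACS2 2.2.7.1. Which input served which library is not given in the sources used here. The fold enrichment is a ratio of precipitated to control signal over a peak that the authors deposited. Each peak also came with a −log10 p and a −log10 q in the deposited lists.

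Here, overlapping peaks of a list were merged and the covered share of each 5 kb window was computed, counting from the start of each arm. The fold enrichment of a window is the mean over its covered bases, weighted by length. The computations used Python 3.11.15, NumPy 2.4.6, pandas 2.3.3, SciPy 1.17.1 and matplotlib 3.10.9, and functions were tested on simulated data. Genes came from Ensembl release 115, and sequence and transposons from RefSeq Release 6 with the same coordinates. A gene was placed by the 5′ end of its annotated span. The members and gene lists were chosen with earlier results of these data known. Named were the genes of the 10 longest runs (ties ordered by lower mean H3R17me2 share), every listed gene that starts in a member, the members with the largest difference without overlap in each comparison of fold enrichment and the 3 windows nearest to each threshold. The left-out libraries, the counts of distinct peaks and the 3 GAGAG stretches were added after the data were seen. The rule asked for promoters with the 50 bases after the start, and only the 250 bases before it are printed. It also allowed genes of any list on 2L, 3L or 3R, and only genes of the developmental lists were taken. The alternatives changed the peak threshold, the number of peaks, both share limits, the windows and the libraries. Under each alternative the members were chosen again. The 2 replicates per group are biological replicates according to the study's methods.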

Additional observations from a re-analysis of the deposited data

Results flagged for a closer look

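The covered share of H3K27me3 in the members differed in opposite directions in pairs of comparisons, and in each comparison the libraries of the groups did not overlap. Between genotypes it was higher in 40-day mutants than in 40-day controls, by 1.43 percentage points, whereas at 3 days it differed by -2.16 points, mutants minus controls. The other H3K27me3 windows had similar differences between genotypes, 1.34 points at 40 days and -1.94 points at 3 days. Between ages the share in members was 2.01 points higher at 40 days than at 3 days in mutants, whereas in controls the difference was -1.58 points, 40 days minus 3 days. In the other H3K27me3 windows both differences with age were positive, 4.45 points in mutants and 1.17 points in controls. The difference with age in controls within members rested on the libraries numbered 2, with -3.15 points, since those numbered 1 gave -0.0132 points. No source pairs libraries by number. The 2 control groups barely parted, with 89.53% in 40-day control replicate 1 and 89.54% in 3-day control replicate 1. The difference between these effects was not tested, the 4 comparisons share their libraries, and with 2 libraries per group no permutation can pass 0.05.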

How the results depend on the processing

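No paired analysis was possible because the comparisons over members come from no test, and no source pairs the libraries that share a number. The deposited lists hold no counts, so what depth limits could not be measured. The number of members depended strongly on the rule. It was 1798 with peaks of −log10 p of at least 3, where nearly no H3R17me2 peak was left and no other H3K27me3 window was available for GC content, starts and motifs. It was 148 with H3K27me3 peaks of q under 0.05, 680 with an equal number of peaks, 374 and 119 with an H3K27me3 minimum of 25% and 75%, 9 and 1280 with an H3R17me2 limit of 10% and 40%, 1 with 25% as limit in the highest list, and 887 and 57 in windows of 2 kb and 10 kb. Leaving out replicates gave 218 to 839, the highest without replicate 2 of all conditions. In these settings 100 (−log10 p), 32 (equal peaks), 1 and 53 (10% and 40%), 0 (highest list), 30 (2 kb) and 4 (10 kb) developmental genes started in members, and 15 to 28 without a replicate.

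The GC difference, members minus other H3K27me3 windows, was negative in 27 of 27 alternatives, with -1.74 (q), -1.86 (equal peaks), -1.96 (75%), -4.27 (10%), -1.83 (40%), -2.57 (2 kb), -2.44 (10 kb), -1.89 without replicate 1 of all conditions, -1.78 without H3R17me2 40-day mutant replicate 1, and -2.25 to -1.43 over all that left out a replicate. Starts per window were higher in members in 27 of 27, by 0.251 in windows moved by 2.5 kb, 0.00486 in windows of 10 kb and 0.0489 to 0.131 without a replicate. GAGAG per kb was higher in members in 27 of 27, by 0.147 to 0.857, the lowest without replicate 2 of all conditions and the highest with an H3R17me2 limit of 10%.

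H3K27me3 fold enrichment kept its direction in 28 of 28 alternatives for 40-day mutants minus 40-day controls (0.101 to 0.489 without a replicate) and for 40-day minus 3-day controls (-1.14 with −log10 p, -0.960 to -0.352 without a replicate). It changed sign without a replicate for 3-day mutants minus controls (-0.634 to 0.268) and 40-day minus 3-day mutants (-0.472 to 0.201).

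The H3K27me3 share of 3-day mutants minus controls was -0.339 (−log10 p), -0.460 (q), -0.0725 (75%), -3.78 (10%), -0.844 (2 kb), -4.09 (10 kb) and -3.15 to -0.886 without a replicate. For 40-day minus 3-day controls it turned to 0.0321 (−log10 p), 0.0701 (equal peaks), 0.450 (75%) and 0.509 (40%), was -3.12 (10%) and -0.127 (2 kb), and ranged over -2.67 to 1.85 without a replicate. For 40-day minus 3-day mutants it was 0.436 (−log10 p), 0.143 (q), 2.92 (equal peaks), 4.23 (25%), 0.392 (75%), 3.80 (40%), 1.02 (2 kb), 4.06 (10 kb), 3.50 (moved), 1.04 without H3K27me3 40-day mutant replicate 1, 3.10 without H3R17me2 40-day control replicate 1, and 1.02 to 3.79 over all that left out a replicate. For 40-day mutants minus controls it turned to -0.130 (75%), was 0.0646 (−log10 p) and 0.308 (2 kb), and ranged over -0.139 to 2.21 without a replicate.

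The H3R17me2 share of 40-day minus 3-day controls was -0.00487 (−log10 p), 5.71 (10%), -8.39 (10 kb) and -7.35 to -1.54 without a replicate. That of 40-day minus 3-day mutants was -4.73 (10%) and -2.28 to 10.4 without a replicate. That of 40-day mutants minus controls turned to -0.00577 (−log10 p) and -3.46 (10%), and was 2.67 to 15.5 without a replicate. That of 3-day mutants minus controls was -2.44 to 5.41 without a replicate. Without the H3R17me2 list of 40-day control replicate 1, which stood apart, 218 windows were chosen, of which 179 were among the 224 members. The causes of these changes were not tested.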
